A study of Mus musculus with 11 samples.

Results

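The extracellular matrix proteases of the MMP, ADAMTS and ADAMTSL families, the TIMP inhibitors and the lysyl oxidases were described in mouse liver under a diet lacking methionine and choline (MCD), with and without limonin. The genes were chosen by symbol, with earlier results of these data known. Lox and every gene named Mmp, Timp, Adamts, Adamtsl or Loxl with a number in its series were taken, which gave 54 of the 31280 genes in the table. These were 21 Mmp genes, 4 Timp genes, 19 Adamts genes, 5 Adamtsl genes and 5 genes of the lysyl oxidase family. All 11 animals were wild-type C57BL/6 mice fed the MCD diet for 8 weeks, a diet that produces fatty and inflamed liver with fibrosis but also weight loss, and none was on a control diet. The 5 animals of the MCD group were given water by gavage, and the 6 of the limonin group received limonin, a limonoid that makes citrus juice bitter, by gavage for 4 weeks at a dose of 100 mg/kg. The values are FPKM in whole liver, that is, fragments per length of transcript and per size of library, 1 library per animal. The labels used here give neither sex nor age.

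Fibrous tissue in the liver is laid down mainly by activated stellate cells and portal fibroblasts, and it is both cut and strengthened outside the cell. MMPs are zinc proteases, secreted or held at the cell surface, that cut collagens, elastin, proteoglycans and many signalling proteins, and most are made as inactive precursors. TIMPs bind the active site of MMPs and block it. ADAMTS enzymes are related secreted proteases that trim procollagens, cut proteoglycans or process clotting and microfibril proteins, while ADAMTSL proteins share their binding domains but have no protease domain. Lysyl oxidases oxidise lysines in collagen and elastin, which lets the fibres become cross-linked and harder to degrade.

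In the whole table, summed FPKM were 464184 to 471623 in the MCD libraries and 404050 to 462665 in the limonin libraries, and 9742 to 11087 genes reached 1 FPKM per library. The number of reads behind a value is unknown, because FPKM do not keep it. A gene was tested where it had at least 1 FPKM in at least 5 libraries, which 10489 genes did, and it was called at an adjusted p under 0.05 in limma's moderated test on log2(FPKM + 1), with the Benjamini-Hochberg adjustment over those genes. With limonin, 1957 of them (18.7%) were called lower and 759 (7.24%) higher, so that 27.9% of the calls were higher. That share was 42.2% after median-ratio scaling, 51.4% after quantile normalization, 49.6% with summed FPKM made equal, and 46.5% without limonin 5 and limonin 6. Those 2 libraries held the heart gene Myh6 at 0.882 and 0.654 FPKM, against at most 0.00977 FPKM elsewhere. The hepatocyte gene Alb, for albumin, was at 17789 FPKM (MCD mean) and 25889 FPKM (limonin mean).

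Of the 54 genes, 21 passed the filter on low values and 33 did not. Of the 21 tested, 15 were called lower with limonin, beside 18.7% of all genes tested, 0 were called higher, beside 7.24%, and 6 were not called. At an unadjusted p under 0.05 the only higher one was Mmp19. The median log2 fold change of the 21 was -0.72, against -0.07 over all genes tested. In 8 of the 21, every limonin library was below every MCD library, beside 8.33% of all genes tested; in 0 of the 21 was every limonin library above every MCD library, beside 2.97%. A filter of this kind favours genes that are high in 1 group: 8 of the 21 reached 1 FPKM in all 5 MCD libraries but in fewer than 5 limonin libraries, and Adamts2 passed on its MCD values alone. Of the 10 that reached 1 FPKM in at least 5 limonin libraries, 7 were called lower. The matching share over all genes was not computed, so this count does not remove the effect of the filter. Over all 54 genes the mean was lower with limonin in 45 and higher in 9, whether tested or not. The share of all 31280 genes with a lower mean was not computed, so these 2 counts are a description only. After median-ratio scaling 16 of the 21 were called lower and 1 (Mmp19) higher, and after quantile normalization 15 and 1. With summed FPKM made equal the counts were 13 and 1, and without limonin 5 and limonin 6 also 13 and 1. Over all 10489 genes tested the same counts were, in that order, 1752 and 1277, 1640 and 1737, 1112 and 1096, and 1548 and 1347. The p-values measure the spread between animals of 1 cohort. In whole liver, fewer cells of a type and less RNA per cell cannot be told apart.

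**Figure D1:**
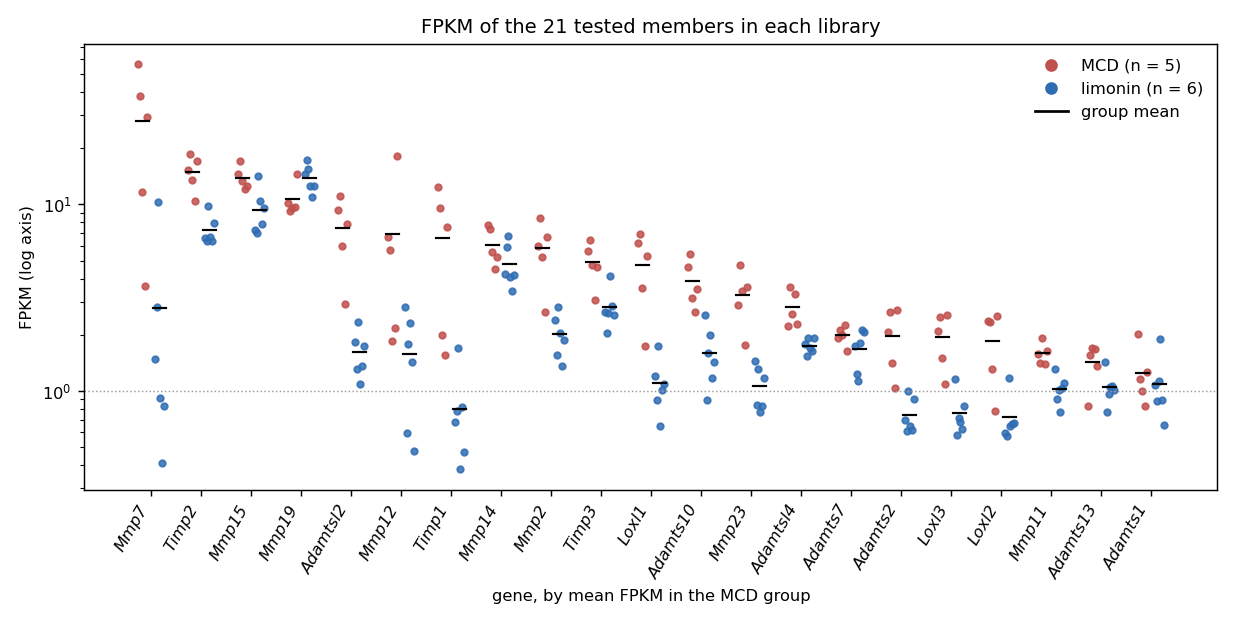
FPKM of the 21 tested genes (vertical log axis) by gene, in order of the MCD mean, with 1 point per library for the 5 MCD and 6 limonin animals and a bar at each group mean. Mmp7 ranges most widely, from 0.408 to 56.4 FPKM, and the 2 groups do not overlap for genes such as Timp2, Adamtsl2 and Loxl1.

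**Figure D2:**
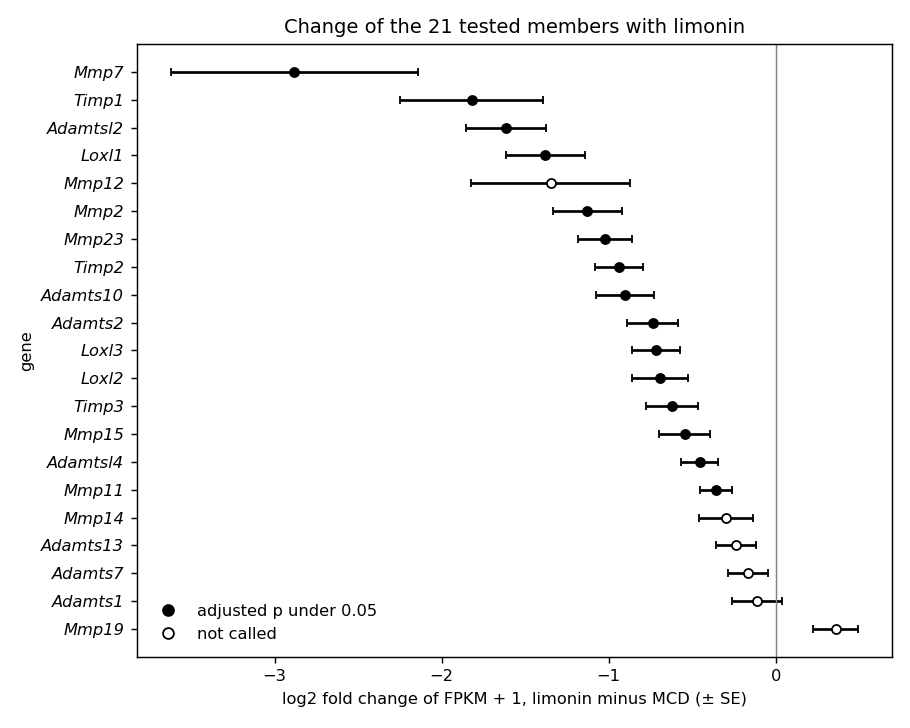
Log2 fold change of FPKM + 1, limonin minus MCD, with its standard error, for the 21 tested genes in order of size. Filled points are the 15 genes called lower; the open points are the 6 not called, of which only Mmp19 lies above 0.

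The TIMP inhibitors fell with limonin. All 3 tested members were called lower, beside 18.7% of all genes tested. The summed FPKM of the 4 Timp genes were 26.5 ± 8.53 FPKM (SD, n = 5) in MCD and 10.9 ± 1.74 FPKM (SD, n = 6) in limonin. Timp1, an inducible inhibitor of many MMPs that is widely used as a marker of liver fibrosis (ENSMUSG00000001131, chromosome X:20870166-20874735, plus strand, GRCm38), was at 12.3, 9.59, 2, 1.56 and 7.55 FPKM in MCD 1 to MCD 5. With limonin the lowest, median and highest values were 0.379, 0.732 and 1.69 FPKM. All limonin libraries but limonin 3 were below every MCD library, and MCD 3 and MCD 4 were close to limonin 3. Its mean was 6.61 ± 4.73 FPKM (SD, n = 5) in MCD and 0.804 ± 0.469 FPKM (SD, n = 6) in limonin, 8.22-fold lower, with a log2 fold change of -1.82 ± 0.43 (SE) and an adjusted p (limma) of 0.0128.

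Timp2, an inhibitor that also helps to activate pro-MMP2 on the cell surface (chromosome 11:118301069-118355740, minus strand), was the most abundant Timp gene in all 11 libraries. The MCD libraries, 1 to 5, had 15.3, 18.6, 13.5, 10.4 and 17.2 FPKM. Limonin values ran from 6.37 to 9.79 FPKM around a median of 6.62. The groups did not overlap, and MCD 4 was the lowest MCD library. The mean was 15 ± 3.2 FPKM (SD, n = 5) in MCD and 7.3 ± 1.37 FPKM (SD, n = 6) in limonin, with a log2 fold change of -0.94 ± 0.14 (SE) and an adjusted p (limma) of 0.00165. Timp3, an inhibitor that stays bound to the matrix and also blocks ADAM and ADAMTS proteases, measured 5.61, 6.47, 4.75, 3.08 and 4.61 FPKM in MCD 1 to MCD 5. Across the 6 limonin libraries it ranged from 2.04 to 4.13 FPKM (median 2.63). Here 5 of the 6 limonin libraries were below every MCD library, and limonin 4 was above MCD 4. The mean was 4.9 ± 1.26 FPKM (SD, n = 5) in MCD and 2.81 ± 0.701 FPKM (SD, n = 6) in limonin, with a log2 fold change of -0.62 ± 0.16 (SE) and an adjusted p (limma) of 0.0125. Its exons share 1733 bases with Syn3 on the opposite strand, a gene at 0.078 FPKM (MCD mean), and the sources used here do not say whether strand was used in counting. Timp4 was below the filter, at 0.0391 ± 0.0189 FPKM in MCD and 0.0212 ± 0.019 in limonin (SD).

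Timp1 made up 9.86% to 37% of the Timp FPKM in MCD libraries (mean 22.1%) and 3.4% to 12% in limonin libraries (mean 7.18%). Timp3 accounted for 15.7% to 23.4% of the Timp FPKM in MCD libraries (mean 19%) and 18.4% to 37% in limonin libraries (mean 26%). The share of Timp2 was 46% to 69.1% of the Timp FPKM in MCD libraries (mean 58.7%) and 59.6% to 72.3% in limonin libraries (mean 66.7%). These shares are of summed FPKM, which are per length, and are given as a description. The share of Timp1 was lowest among MCD libraries in MCD 3, at 9.86%, and highest among limonin libraries in limonin 3, at 12%, so the groups overlapped.

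**Figure D3:**
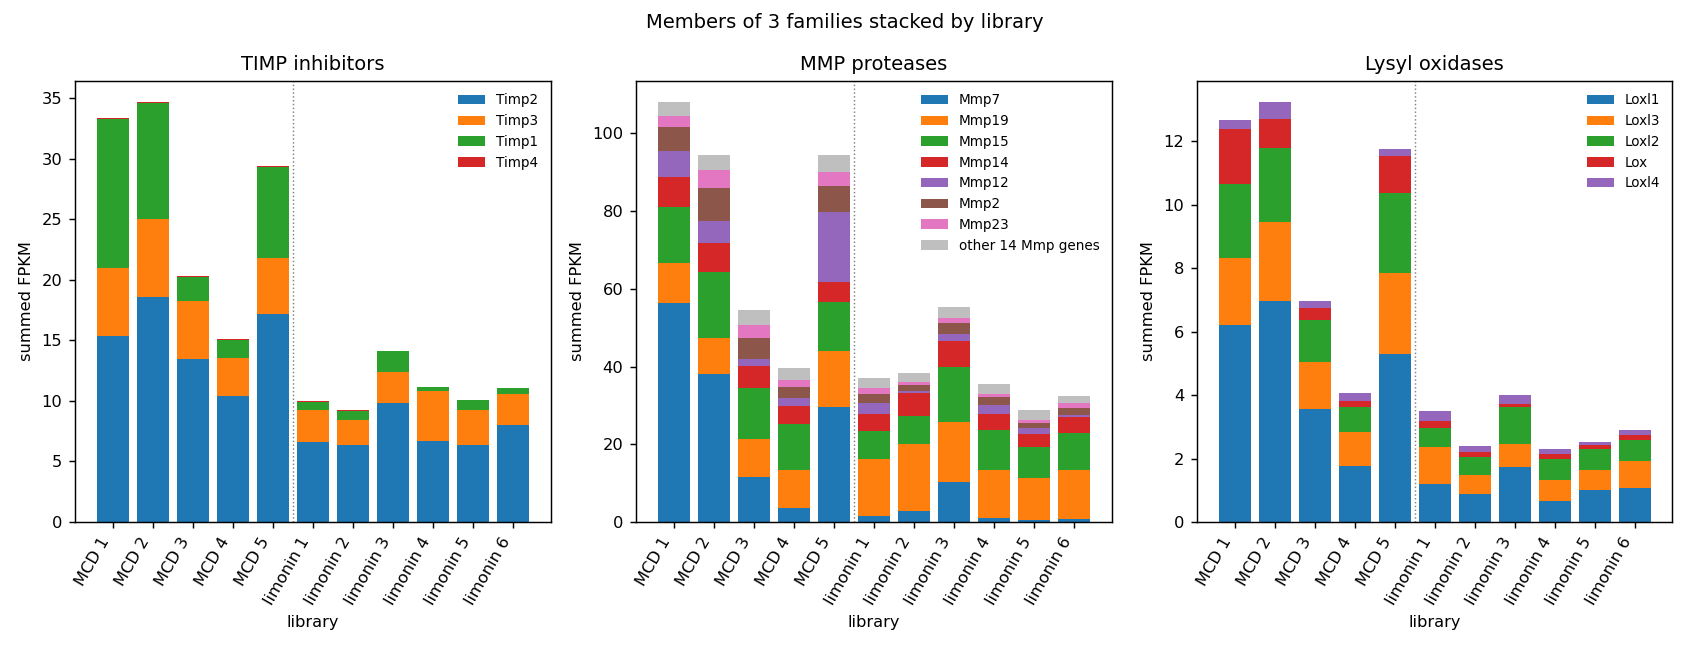
Stacked FPKM of the TIMP, MMP and lysyl oxidase genes in each of the 11 libraries, MCD to the left of the dotted line and limonin to the right. The Mmp7 part of the MMP bars is large in MCD 1, MCD 2 and MCD 5 and smaller in the other libraries. In limonin 3 it is above that of MCD 4 (10.3 against 3.64 FPKM). Mmp19 is the largest single part in every limonin library.

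Among the MMPs, 5 of 8 tested genes were called lower, beside 18.7% of all genes tested, and 0 higher, beside 7.24%. Of the 4 that reached 1 FPKM in at least 5 limonin libraries, 2 were called lower. The summed FPKM of the 21 Mmp genes were 78.2 ± 29.4 FPKM (SD, n = 5) in MCD and 37.9 ± 9.21 FPKM (SD, n = 6) in limonin. Mmp7 was the most abundant in MCD 1, MCD 2 and MCD 5, and Mmp15 in MCD 3 and MCD 4, while Mmp19 was the most abundant in all 6 limonin libraries. Mmp7 made up 9.17% to 52.2% of the Mmp FPKM in MCD libraries (mean 30.9%) and 1.42% to 18.5% in limonin libraries (mean 6.07%). Mmp19 accounted for 9.44% to 24.3% of the Mmp FPKM in MCD libraries (mean 15.3%) and 27.9% to 45.3% in limonin libraries (mean 37.4%).

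Mmp7, matrilysin, is a small MMP made mainly by epithelial cells such as those lining ducts (ENSMUSG00000018623, chromosome 9:7692090-7699585, plus strand). Its level was 56.4, 38.1, 11.7, 3.64 and 29.5 FPKM in MCD 1 to MCD 5. The limonin libraries lay between 0.408 and 10.3 FPKM, with a median of 1.2. MCD 4 was far below the other MCD libraries and limonin 3 far above the other limonin libraries, so the groups overlapped, although 5 of the 6 limonin libraries were below every MCD library. The mean was 27.9 ± 21 FPKM (SD, n = 5) in MCD and 2.78 ± 3.75 FPKM (SD, n = 6) in limonin, a ratio of 0.0999, with a log2 fold change of -2.88 ± 0.74 (SE) and an adjusted p (limma) of 0.0205. The coefficient of variation was 75.5% in MCD and 135% in limonin. Without MCD 2 the call was lost, with a log2 fold change of -2.66 and an adjusted p (limma) of 0.0604. It was also lost without both limonin 5 and limonin 6, with -2.47 and an adjusted p (limma) of 0.0504. Without limonin 3 the log2 fold change was -3.28 with an adjusted p (limma) of 0.00781.

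Mmp12, the macrophage metalloelastase, lies on the same chromosome as Mmp7 and was not called. From MCD 1 to MCD 5 the values were 6.72, 5.68, 1.86, 2.18 and 18.1 FPKM. With limonin the lowest, median and highest values were 0.479, 1.61 and 2.83 FPKM. MCD 5 was highest of all libraries, and MCD 3 and MCD 4 were within the limonin range. The mean was 6.91 ± 6.61 FPKM (SD, n = 5) in MCD and 1.57 ± 0.935 FPKM (SD, n = 6) in limonin, with a log2 fold change of -1.35 ± 0.48 (SE) and an adjusted p (limma) of 0.0604, and the 95% interval of the log2 difference ran from -2.40 to -0.29. The adjusted p (limma) was 0.0338 without MCD 3 and 0.0417 without MCD 4, and the authors' deposited table gives a q of 0.0138. MCD 5 also had the highest sum of macrophage markers, 834 FPKM, and its part in the Mmp12 level was not tested. The exons of Mmp12 share 157 bases with Mmp1b on the opposite strand, which was not analysed here.

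These 2 genes belong to a row of 8 Mmp genes of the set on chromosome 9, within 427 kb (7272514 to 7699585, GRCm38). Mmp1b, which was not analysed here, overlaps this stretch on the opposite strand. The 8 are all on the plus strand: Mmp13, Mmp12, Mmp3, Mmp10, Mmp8, Mmp27, Mmp20 and Mmp7. The other 6, which include the collagenases Mmp13 and Mmp8 and the stromelysins Mmp3 and Mmp10, never exceeded 0.378 FPKM. The 250 bases before the start in RefSeq (GRCm38.p6) were searched on both strands for the AP-1 site TGANTCA, a motif known from MMP promoters. A match stood in 6 of the 8 genes, Mmp7, Mmp12, Mmp13, Mmp3, Mmp10 and Mmp20, and in no others of the 35 genes of the whole set with a promoter in the table, while 6.75% of all 32851 promoters of the same length held one. The other motifs searched were the ETS site AGGAAG (29.5% of all promoters, 12 of 35 genes of the set), the TATA box TATAAA (12.4%, 8 of 35) and the NF-kappaB site (7.25%, 5 of 35), and no match printed here overlapped one of another motif. The sequences are shown because the 2 genes that were expressed and the 4 that were near 0 hold the same short motif close to the start. The motif is in capitals, 5′ to 3′ on the plus strand, 60 bases each except Mmp7 with 250:
Mmp7 (chr9:7691840-7692089): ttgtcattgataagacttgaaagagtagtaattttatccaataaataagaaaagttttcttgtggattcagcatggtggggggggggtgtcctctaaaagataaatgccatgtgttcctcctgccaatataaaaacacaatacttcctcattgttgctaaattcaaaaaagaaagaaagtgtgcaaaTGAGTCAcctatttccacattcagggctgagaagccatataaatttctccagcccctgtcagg
Mmp12 (chr9:7347303-7347362): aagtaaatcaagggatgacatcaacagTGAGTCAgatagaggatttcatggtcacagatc
Mmp13 (chr9:7272452-7272511): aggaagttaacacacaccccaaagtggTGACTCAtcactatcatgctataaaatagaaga
Mmp3 (chr9:7445749-7445808): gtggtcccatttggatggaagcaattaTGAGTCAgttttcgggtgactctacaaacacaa
Mmp10 (chr9:7502252-7502311): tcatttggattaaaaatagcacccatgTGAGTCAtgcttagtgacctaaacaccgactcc
Mmp20 (chr9:7628109-7628168): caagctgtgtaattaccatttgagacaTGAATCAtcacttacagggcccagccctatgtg
The AP-1 match of Mmp7 lies 63 to 57 bases before the start, that of Mmp12 44 to 38 bases before a second RefSeq start, 2993 bases downstream of the GENCODE start, and those of Mmp13 and Mmp3 35 to 29 and 46 to 40 bases before it. Mmp7 also holds an ETS match 108 to 103 bases and 2 TATA boxes 123 to 118 and 26 to 21 bases before the start. A match is a description of the letters, not a bound site.

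**Figure D4:**
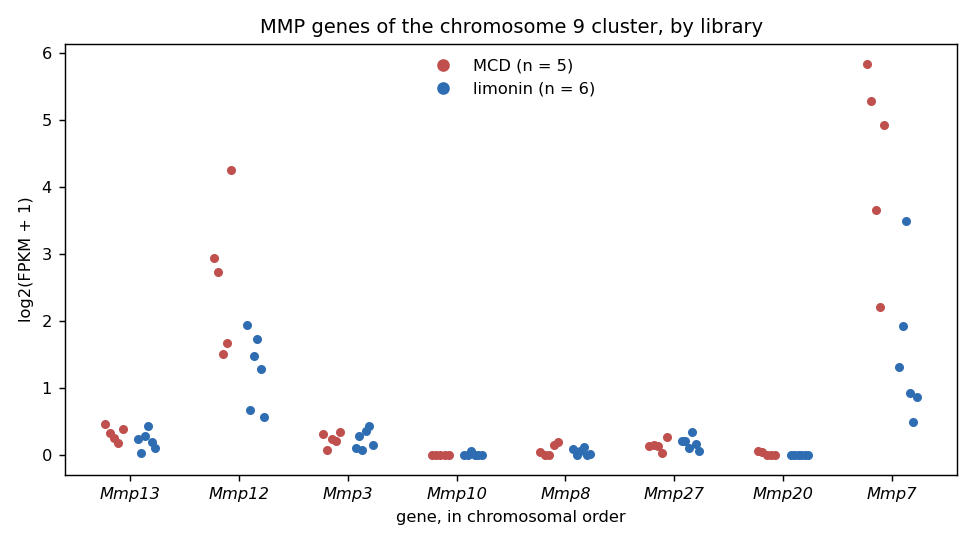
Log2(FPKM + 1) of the 8 Mmp genes of the set on chromosome 9 in chromosomal order, 1 point per library, MCD and limonin side by side. Mmp12 and Mmp7 are the only 2 with points above 1, and MCD 5 is the highest point of Mmp12.

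Mmp2, gelatinase A, cuts denatured and type IV collagen and is made mainly by stellate cells and fibroblasts (chromosome 8:92827291-92853420, plus strand). In MCD 1 to MCD 5 it stood at 6, 8.5, 5.24, 2.64 and 6.68 FPKM. Limonin values ran from 1.37 to 2.82 FPKM around a median of 1.96. All limonin libraries but limonin 3 were below every MCD library. The mean was 5.81 ± 2.14 FPKM (SD, n = 5) in MCD and 2.01 ± 0.536 FPKM (SD, n = 6) in limonin, 2.89-fold lower, with a log2 fold change of -1.13 ± 0.21 (SE) and an adjusted p (limma) of 0.00326. Mmp14, the membrane protease that activates pro-MMP2 in a complex with TIMP2, had 7.74, 7.37, 5.58, 4.52 and 5.2 FPKM in MCD 1 to MCD 5. Across the 6 limonin libraries it ranged from 3.41 to 6.81 FPKM (median 4.22). Here 4 of the 6 limonin libraries were below every MCD library, and limonin 2 and limonin 3 were within the MCD range. The mean was 6.08 ± 1.41 FPKM (SD, n = 5) in MCD and 4.78 ± 1.3 FPKM (SD, n = 6) in limonin with a log2 fold change of -0.30 ± 0.16 (SE) and an adjusted p (limma) of 0.186, and the 95% interval of the log2 difference ran from -0.65 to 0.05, so a fall of the size of Timp2 lies outside it. The difference between the changes of Mmp2, Timp2 and Mmp14 was not tested. The other gelatinase, Mmp9, which neutrophils store, was below the filter at 0.466 ± 0.147 FPKM in MCD and 0.297 ± 0.112 in limonin (SD).

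Mmp15 is a membrane-bound MMP found in epithelial cells and hepatocytes. The MCD libraries, 1 to 5, had 14.5, 17, 13.3, 12 and 12.5 FPKM. The limonin libraries lay between 6.99 and 14.1 FPKM, with a median of 8.71. Every limonin library but limonin 3 was below all MCD libraries. The mean was 13.9 ± 1.98 FPKM (SD, n = 5) in MCD and 9.38 ± 2.67 FPKM (SD, n = 6) in limonin, with a log2 fold change of -0.55 ± 0.15 (SE) and an adjusted p (limma) of 0.0212, and without MCD 2 the adjusted p (limma) was 0.0671, and without both limonin 5 and limonin 6 it was 0.0569. The authors' deposited table gives Mmp15 a q of 0.0712.

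Mmp23, a membrane-anchored MMP with an unusual cysteine-rich tail (chromosome 4:155650655-155653384, minus strand), did not overlap between groups. Its level was 2.88, 4.72, 3.42, 1.76 and 3.61 FPKM in MCD 1 to MCD 5. With limonin the lowest, median and highest values were 0.772, 1.01 and 1.45 FPKM. The mean was 3.28 ± 1.08 FPKM (SD, n = 5) in MCD and 1.06 ± 0.285 FPKM (SD, n = 6) in limonin, 3.09-fold lower, with a log2 fold change of -1.02 ± 0.16 (SE) and an adjusted p (limma) of 0.00174. Mmp11, stromelysin 3, is cut to its active form inside the cell by furin. From MCD 1 to MCD 5 the values were 1.58, 1.41, 1.93, 1.39 and 1.64 FPKM. Limonin values ran from 0.773 to 1.31 FPKM around a median of 1.02. The groups did not overlap but stood close together. The mean was 1.59 ± 0.217 FPKM (SD, n = 5) in MCD and 1.02 ± 0.182 FPKM (SD, n = 6) in limonin, with a log2 fold change of -0.36 ± 0.10 (SE) and an adjusted p (limma) of 0.0172. Its exons share 155 of 2778 bases with Chchd10 on the opposite strand, a gene at 983 FPKM (MCD mean), and the part of these shared bases in the Mmp11 values was not tested.

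Mmp19, a secreted MMP that cuts basement membrane proteins, was the only tested gene with a higher mean in the limonin group. In MCD 1 to MCD 5 it stood at 10.2, 9.2, 9.6, 9.63 and 14.5 FPKM. Across the 6 limonin libraries it ranged from 10.9 to 17.4 FPKM (median 13.6). MCD 5 stood apart at 14.5 FPKM, and the other MCD libraries were all below the lowest limonin library. The mean was 10.6 ± 2.2 FPKM (SD, n = 5) in MCD and 13.9 ± 2.35 FPKM (SD, n = 6) in limonin, with a log2 fold change of 0.36 ± 0.13 (SE) and an adjusted p (limma) of 0.0616. The adjusted p (limma) was 0.0204 without MCD 5, 0.0324 without limonin 5, and 0.0221 to 0.0370 under the 3 scalings, and the authors' deposited table gives it a q of 0.00974 without marking it significant. Its exons share 789 of 3533 bases with Tmem198b on the opposite strand, at 2.08 FPKM (MCD mean).

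Of the 19 Adamts genes, 5 were tested: 2 were called lower, beside 18.7% of all genes tested, and 3 were not called. Summed FPKM of the family were 13.3 ± 2.47 FPKM (SD, n = 5) in MCD and 7.65 ± 1.48 FPKM (SD, n = 6) in limonin. Adamts10, which associates with fibrillin microfibrils (chromosome 17:33524204-33553782, plus strand), was the most abundant in all 5 MCD libraries, and Adamts7 in limonin 2, limonin 5 and limonin 6. The MCD libraries, 1 to 5, had 4.6, 5.43, 3.16, 2.65 and 3.51 FPKM. The limonin libraries lay between 0.895 and 2.54 FPKM, with a median of 1.52. The groups did not overlap, with MCD 4 the lowest MCD library and limonin 1 the highest limonin library. The mean was 3.87 ± 1.13 FPKM (SD, n = 5) in MCD and 1.61 ± 0.593 FPKM (SD, n = 6) in limonin, with a log2 fold change of -0.90 ± 0.17 (SE) and an adjusted p (limma) of 0.00377.

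Adamts2 removes the N-terminal propeptide from procollagens I and III. Its level was 2.08, 2.66, 1.41, 1.04 and 2.71 FPKM in MCD 1 to MCD 5. With limonin the lowest, median and highest values were 0.607, 0.677 and 0.993 FPKM. The groups did not overlap, and no limonin library reached 1 FPKM. The mean was 1.98 ± 0.741 FPKM (SD, n = 5) in MCD and 0.746 ± 0.163 FPKM (SD, n = 6) in limonin, with a log2 fold change of -0.74 ± 0.15 (SE) and an adjusted p (limma) of 0.00487. Its relatives among the procollagen N-proteinases, Adamts14 and Adamts3, were below the filter: Adamts14 was at 0.709 ± 0.198 FPKM in MCD and 0.391 ± 0.134 in limonin (SD) and Adamts3 at 0.0275 ± 0.0182 FPKM in MCD and 0.03 ± 0.0267 in limonin (SD).

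The 3 Adamts genes that were not called had small differences. Adamts13, the protease that trims von Willebrand factor and is made by stellate cells, measured 0.828, 1.56, 1.7, 1.67 and 1.37 FPKM in MCD 1 to MCD 5. Limonin values ran from 0.769 to 1.42 FPKM around a median of 1.03. MCD 1 was the lowest MCD library and the groups overlapped. The mean was 1.42 ± 0.359 FPKM (SD, n = 5) in MCD and 1.04 ± 0.212 FPKM (SD, n = 6) in limonin with a log2 fold change of -0.24 ± 0.12 (SE) and an adjusted p (limma) of 0.148, and the 95% interval of the log2 difference ran from -0.49 to 0.01. Without MCD 1 the log2 fold change was -0.34 and the adjusted p (limma) 0.0432. Adamts1, which cuts proteoglycans, measured 2.03, 1.16, 0.999, 0.832 and 1.26 FPKM in MCD 1 to MCD 5. Across the 6 limonin libraries it ranged from 0.656 to 1.89 FPKM (median 0.983). Its groups overlapped throughout, with limonin 4 almost as high as MCD 1. The mean was 1.25 ± 0.461 FPKM (SD, n = 5) in MCD and 1.09 ± 0.427 FPKM (SD, n = 6) in limonin with a log2 fold change of -0.11 ± 0.15 (SE) and an adjusted p (limma) of 0.615, and its direction turned to a log2 fold change of 0.0083 under quantile normalization and 0.00019 without MCD 1. Adamts7, which cuts cartilage matrix and thrombospondin, was at 1.99 ± 0.235 FPKM in MCD and 1.69 ± 0.418 in limonin (SD), with a log2 fold change of -0.17 ± 0.12 (SE) and an adjusted p (limma) of 0.313, and shares 122 exon bases with Tbc1d2b on the opposite strand, at 3.38 FPKM (MCD mean).

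Both tested Adamtsl genes of 5 were called lower, beside 18.7% of all genes tested. Summed FPKM of the family were 10.8 ± 3.19 FPKM (SD, n = 5) in MCD and 3.73 ± 0.585 FPKM (SD, n = 6) in limonin. Adamtsl2 binds fibrillin and the latent TGF-beta binding protein LTBP1 (ENSMUSG00000036040, chromosome 2:27079379-27108981, plus strand). From MCD 1 to MCD 5 the values were 9.37, 11.1, 6.01, 2.94 and 7.88 FPKM. The limonin libraries lay between 1.09 and 2.33 FPKM, with a median of 1.55. The groups did not overlap, and the lowest MCD library, MCD 4, was above the highest limonin library. The mean was 7.45 ± 3.14 FPKM (SD, n = 5) in MCD and 1.61 ± 0.449 FPKM (SD, n = 6) in limonin, 4.63-fold lower, with a log2 fold change of -1.61 ± 0.24 (SE) and an adjusted p (limma) of 0.00165. Adamtsl4, another fibrillin-binding protein, had 2.24, 3.62, 2.58, 3.3 and 2.28 FPKM in MCD 1 to MCD 5. With limonin the lowest, median and highest values were 1.53, 1.74 and 1.93 FPKM. These groups did not overlap either, but the fold was smaller. The mean was 2.8 ± 0.624 FPKM (SD, n = 5) in MCD and 1.75 ± 0.156 FPKM (SD, n = 6) in limonin, with a log2 fold change of -0.46 ± 0.11 (SE) and an adjusted p (limma) of 0.0104. Adamtsl2 made up 43% to 78% of the Adamtsl FPKM in MCD libraries (mean 66.2%) and 35.7% to 51.2% in limonin libraries (mean 42.4%). The share of Adamtsl4 was 18.6% to 48.4% of the Adamtsl FPKM in MCD libraries (mean 27.9%) and 42% to 55.4% in limonin libraries (mean 47.3%).

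The promoters of Timp1 and Adamtsl2 are shown beside that of Mmp7 because these 3 genes had the largest falls on the log2 scale among those called. None but Mmp7 held an AP-1 match. In Timp1 the capitals mark 2 ETS matches, 175 to 170 and 99 to 94 bases before the start, and in Adamtsl2 a TATA box 30 to 25 bases before it (250 bases each, plus strand, GRCm38.p6, RefSeq):
Timp1 (chrX:20869916-20870165): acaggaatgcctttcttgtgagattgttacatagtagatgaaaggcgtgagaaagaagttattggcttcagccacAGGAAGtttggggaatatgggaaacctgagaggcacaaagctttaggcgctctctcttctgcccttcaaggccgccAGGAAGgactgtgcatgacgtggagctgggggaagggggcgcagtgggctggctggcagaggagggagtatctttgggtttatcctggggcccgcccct
Adamtsl2 (chr2:27079129-27079378): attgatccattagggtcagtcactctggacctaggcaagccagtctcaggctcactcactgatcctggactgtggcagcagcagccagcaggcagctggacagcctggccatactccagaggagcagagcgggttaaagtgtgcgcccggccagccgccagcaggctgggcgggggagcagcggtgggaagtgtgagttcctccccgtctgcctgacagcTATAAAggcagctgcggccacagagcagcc

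In the lysyl oxidase family all 3 tested members were called lower, beside 18.7% of all genes tested. None of the 3 reached 1 FPKM in at least 5 limonin libraries, and the filter favours such genes where they are high in MCD. The summed FPKM of the family were 9.75 ± 4.03 FPKM (SD, n = 5) in MCD and 2.94 ± 0.676 FPKM (SD, n = 6) in limonin. Loxl1, which acts mainly on elastic fibres (chromosome 9:58287738-58313186, minus strand), was the most abundant member in all libraries but limonin 4, where Loxl3 was. In MCD 1 to MCD 5 it stood at 6.22, 6.96, 3.55, 1.75 and 5.3 FPKM. Limonin values ran from 0.651 to 1.73 FPKM around a median of 1.05. The groups did not overlap, although MCD 4 was only slightly above limonin 3. The mean was 4.76 ± 2.11 FPKM (SD, n = 5) in MCD and 1.1 ± 0.365 FPKM (SD, n = 6) in limonin, 4.34-fold lower, with a log2 fold change of -1.38 ± 0.24 (SE) and an adjusted p (limma) of 0.00277.

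Loxl2, a cross-linking enzyme of collagen IV that has been targeted by antibodies in liver fibrosis (chromosome 14:69609068-69695834, plus strand), measured 2.36, 2.33, 1.32, 0.781 and 2.51 FPKM in MCD 1 to MCD 5. Across the 6 limonin libraries it ranged from 0.576 to 1.17 FPKM (median 0.656). Limonin 3 was the only limonin library above MCD 4, and the other 5 were below every MCD library. The mean was 1.86 ± 0.766 FPKM (SD, n = 5) in MCD and 0.722 ± 0.225 FPKM (SD, n = 6) in limonin, with a log2 fold change of -0.69 ± 0.17 (SE) and an adjusted p (limma) of 0.0108. Loxl3 had 2.09, 2.49, 1.49, 1.09 and 2.56 FPKM in MCD 1 to MCD 5. The limonin libraries lay between 0.58 and 1.16 FPKM, with a median of 0.699. Again 5 of 6 limonin libraries were below every MCD library, limonin 1 being above MCD 4. The mean was 1.94 ± 0.64 FPKM (SD, n = 5) in MCD and 0.766 ± 0.211 FPKM (SD, n = 6) in limonin, with a log2 fold change of -0.72 ± 0.14 (SE) and an adjusted p (limma) of 0.00446. Loxl3 shares 535 of 4603 exon bases with Htra2 on the opposite strand, at 10.2 FPKM (MCD mean).

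Lox, the founding member of the family, did not reach the filter and is described because it gives the family its name. The MCD libraries, 1 to 5, had 1.72, 0.918, 0.38, 0.207 and 1.15 FPKM. With limonin the lowest, median and highest values were 0.0948, 0.147 and 0.214 FPKM. MCD 4 was below the highest limonin library and the other MCD libraries were above it. The mean was 0.876 ± 0.61 FPKM (SD, n = 5) in MCD and 0.144 ± 0.0412 FPKM (SD, n = 6) in limonin, 6.08-fold lower. With a filter on the mean over all libraries of at least 0.2 FPKM, its log2 fold change was -0.65 ± 0.17 with an adjusted p (limma) of 0.0168. Its limonin mean was below 0.2 FPKM, so it passed that filter through its MCD values. With no filter the log2 fold change was the same and the adjusted p (limma) was 0.0523, so it was not called. Loxl4 was at 0.308 ± 0.132 FPKM in MCD and 0.212 ± 0.0784 in limonin (SD).

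Of the 33 genes below the filter, 14 reached 0.3 FPKM in at least 1 library: Lox, Loxl4, Mmp9, Mmp17, Mmp28, Mmp13, Mmp24, Mmp3, Adamts15, Adamts14, Adamts5, Adamts6, Adamts9 and Adamtsl5. None of the 33 was at 0 in all libraries, and Mmp20, Mmp10, Mmp16, Mmp21, Adamts18, Adamts19 and Adamts20 stayed at or below 0.0492 FPKM. In 2 of the 33, Mmp17 and Adamts16, every limonin library was below every MCD library, beside 2.96% of genes below the filter, and in 0 above, beside 0.606%. Under the filter on a mean of at least 0.2 FPKM, 5 of 11 were called lower (Lox, Adamts15, Adamts5, Mmp17 and Adamts14) and 0 higher, beside 18% and 6.61% of all genes tested so. Among those called, Lox and Mmp17 had limonin means below 0.2 FPKM, so they passed through their MCD values. With no filter, 3 of 33 were called lower (Adamts9, Adamts16 and Mmp25) and 0 higher, beside 5.68% and 1.32% of all 31280 genes. None of the 5 genes called under the filter on the mean was called without a filter. The percentages of these 2 fits include genes that passed the main filter. The shares called among genes below the main filter were not computed. Adamts15 and Adamts5 are proteoglycanases, at 0.778 ± 0.235 FPKM in MCD and 0.38 ± 0.146 in limonin (SD) and 0.474 ± 0.137 FPKM in MCD and 0.24 ± 0.0983 in limonin (SD). Mmp17 is held at the membrane by a lipid anchor, at 0.41 ± 0.109 FPKM in MCD and 0.197 ± 0.0693 in limonin (SD). Mmp24 shares 637 exon bases with BC029722 on the opposite strand, at 30.6 FPKM (MCD mean). At a q under 0.05, a threshold chosen here, the authors' deposited table has 24 of the 54 genes lower and 1 (Mmp19) higher, and 2328 and 2682 of all 31280 genes. The authors' deposited table itself marks 3333 genes as significant, of which 24 are in the set, all lower. Of those 24, 9 were below the filter used here.

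The high and low values fell in the same few animals for many genes. MCD 4 was the lowest MCD library for 14 of the 15 genes called lower, MCD 2 the highest of all libraries for 9 of them, and limonin 3 the highest limonin library for 9. Some marker sums were also low in MCD 4 (cholangiocytes, stellate cells and macrophages) or highest among limonin libraries in limonin 3 (cholangiocytes), while others peaked elsewhere, and their part in the gene changes was not tested. The summed FPKM of 14 cholangiocyte markers ranged from 83.5 (MCD 4) to 439 (MCD 1) in MCD and from 30.5 to 101 (limonin 3) in limonin. All 10 tested markers were called lower, a count that was 7 without MCD 1, without MCD 2 or without both limonin 5 and limonin 6. The 16 stellate cell and fibroblast markers summed to 196 to 301 FPKM in MCD, again lowest in MCD 4, and to 128 to 157 in limonin, where limonin 3 had 139, with 12 of 16 called lower and 0 higher. The 15 macrophage markers summed to 222 (MCD 4) to 834 (MCD 5) and to 136 to 231, with 8 of 13 tested called lower, a count that was 3 without MCD 2 and 5 without limonin 2 or without both limonin 5 and limonin 6. The 13 neutrophil markers summed to 42.2 to 162 and 34.5 to 572, of which Lcn2, also made by hepatocytes, was the main part, and 3 of 5 tested were called lower, against 0 without MCD 2 or without both limonin 5 and limonin 6. Of the 10 tested endothelial markers 1 was called lower and 1 higher; the lower count was 0 without MCD 2, MCD 3, MCD 5 or any of limonin 2 to limonin 6, and the higher count was 0 without MCD 1, MCD 2, MCD 5 or any limonin library but limonin 5. Of the 12 hepatocyte markers 0 were called lower and 5 higher, a count that was 3 without MCD 1, MCD 2 or limonin 4. These marker counts stand beside 18.7% lower and 7.24% higher of all genes tested. With the replicate number as a block in the fit, the lower counts were 5 for cholangiocytes and 9 for stellate cells and fibroblasts. In that fit they were 2 for macrophages and 0 for neutrophils, and the higher count for hepatocytes was 1. No marker of any list was at 0 in all libraries. Some markers, such as Col1a1, Dcn, Spp1 and Vwf, also stand in the matrix lists.

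**Figure D5:**
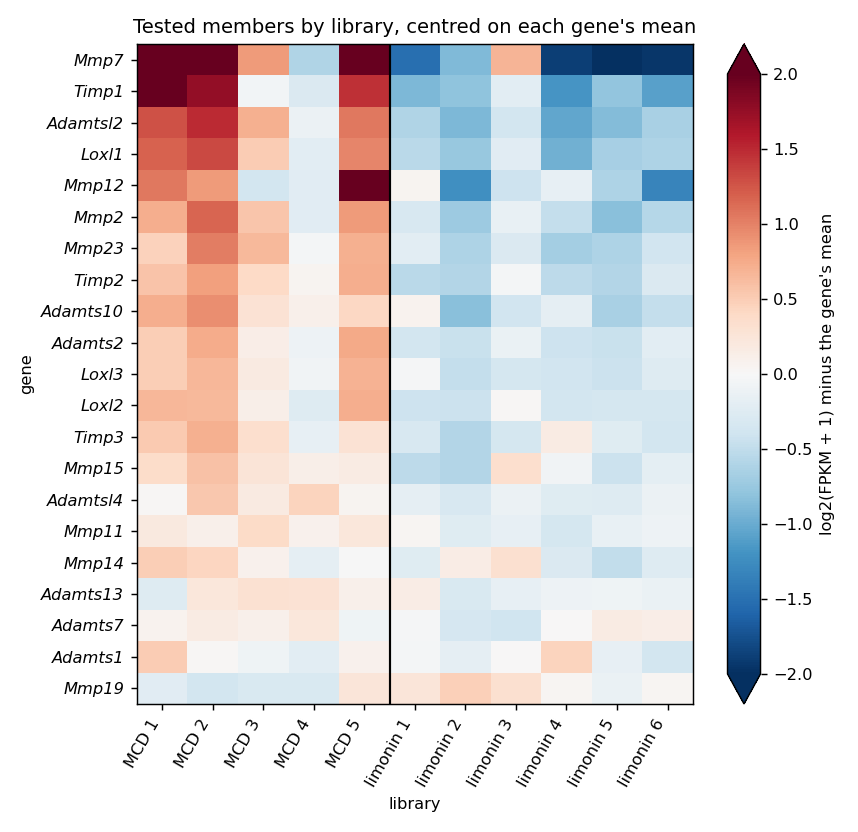
Log2(FPKM + 1) of the 21 tested genes minus the mean of that gene over all 11 libraries, on a colour scale from -2 to 2 with values beyond it in the end colours, genes in rows and libraries in columns. MCD 4 is paler than the other MCD libraries in most rows, and limonin 3 is the least low of the limonin libraries for several of them.

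Most genes for the substrates of these enzymes also fell. Of 12 tested collagen and elastin genes, 11 were called lower, 0 higher and 1 (Col18a1) not, with a median log2 fold change of -0.99: Col6a1 fell by 1.07, Col1a2 by 1.47 and Col5a1 by 0.92 on the log2 scale. Of 10 tested proteoglycan and glycoprotein substrates, 8 were called lower, 1 (Fn1, fibronectin) higher and 1 not, with a median of -0.63. Biglycan, Bgn, fell by 1.14, the perlecan gene Hspg2 by 0.73 and Sparc by 1.52, while the count was 5 without MCD 1, without MCD 2 or without limonin 5 and limonin 6. Fn1 rose by 0.70; it is also secreted by hepatocytes into plasma.

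The cross-linking and collagen-processing partners of the lysyl oxidases included 18 tested genes, of which 10 were called lower, 0 higher and 8 not, with a median log2 fold change of -0.45. Serpinh1, the collagen chaperone HSP47, fell by 1.59, Fkbp10, a collagen-folding isomerase, by 1.10, and P3h3, a prolyl hydroxylase, by 0.87. Of 16 other extracellular proteases tested, 8 were called lower, 2 (Adam9 and the hepatocyte protease gene Hpn) higher and 6 not. Among them St14 fell by 0.92, Htra3 by 0.68 and Adam15 by 0.63. The lower count was 5 without MCD 2, and the higher count was 0 or 1 in most of the fits that left out 1 library.

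Plasmin, the product of the plasminogen system, activates several MMPs. Of 12 tested genes, 4 were called lower, 2 higher and 6 not, with a median of -0.35. Plau, the urokinase gene, fell by 1.09 on the log2 scale, while Plg, plasminogen, rose by 0.78 and Serpinf2, its plasmin inhibitor, by 0.57, both products of hepatocytes. The lower count was 2 without MCD 1 or without MCD 2. Among 12 tested MMP activators and inhibitors outside the TIMP family, 1 (Cd44, down 0.91) was called lower, 4 higher and 7 not, with a median of 0.21. The 4 were Furin, Pzp, Mug1 and Mug2, where the last 3 encode liver-made plasma inhibitors of the alpha-2-macroglobulin type; Mug1 rose by 1.04 and Mug2 by 0.70. That higher count was 1 without MCD 2. Of 13 tested AP-1, ETS and NF-kappaB factors, 12 were called lower, 0 higher and 1 not, with a median of -0.88. That lower count was 8 without MCD 2 and also 8 with summed FPKM made equal. Jun fell by 1.49, Fos by 0.96 and Nfkb2 by 1.12 on the log2 scale. With the replicate number as a block in the fit, the lower counts were 6 for these factors and 1 for the plasminogen system. In that fit they were 8 for collagens and elastin, 4 for proteoglycans and glycoproteins, 8 for cross-linking partners and 3 for other proteases. The higher count for MMP activators and inhibitors was then 2. Each of these lists was read beside the -0.07 median and the 18.7% and 7.24% over all genes tested, and nothing is claimed for a list beyond its counts.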

How the data were processed

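Poly(A) RNA from 11 livers was made into libraries that mark the strand with dUTP, per the labels' protocols. Cutadapt 1.9, HISAT2 2.0.4, StringTie 1.3.4d and the human build GRCh38 are named in the submitters' processing notes, although the gene identifiers are those of mouse. The sources used here do not say whether strand was used in counting. Per library and gene, the authors deposited FPKM, with the authors' fold (a ratio of group means), its log2, p-value and q-value, per the file headers. Depth is unknown, and counts were not used here.

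The scale of the tests was log2(FPKM + 1), which makes folds of low genes look smaller than they are. Limonin was set against MCD in limma 3.58.1 (R 4.3.3, two-sided, with trend and robust variances). The fit was also run on simulated data, in which genes that had passed the filter varied independently. That run cannot check the effect of the filter or of differences between animals that many genes share. Names, positions and overlaps are from GENCODE M21 (GRCm38), which held 31191 of 31280 identifiers. RefSeq promoters (GRCm38.p6) matched 35 of the 54 genes; proteins were not analysed here. Members, lists and rules for naming genes were chosen with earlier results of these data known: every gene called, 10 preset members, and, per list, at most 3 called genes of lowest p. Filters, pseudocount, scaling, variance model, libraries left out and a replicate block were varied.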

Additional observations from a re-analysis of the deposited data

Results flagged for a closer look

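In 4 of 42 groups of libraries (21 tested genes in each of 2 groups) 1 library lay far from the rest by Dixon's criterion, which chance does in about 1 of 20 groups. Limonin 3 was the high library for Mmp7 at 10.3 FPKM, for Timp1 at 1.69 FPKM and for Loxl2 at 1.17 FPKM. Limonin 3 also had the highest cholangiocyte marker sum of the limonin libraries, 101 FPKM, and its part in those values was not tested. MCD 5 was the high MCD library for Mmp19, at 14.5 FPKM.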

How the results depend on the processing

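Over 22 alternatives, 10 of the 15 lower calls held in every one, and 13 held in all 11 fits that left out 1 library; Mmp7 and Mmp15 were lost without MCD 2. The count of set members called lower ranged from 13 to 16 when 1 library was left out, and was 24 by the authors' q over all 54 genes. The higher count was 0 to 1 when 1 library was left out and 1 under median-ratio scaling, quantile normalization, equal summed FPKM, without both limonin 5 and limonin 6, and by the authors' q. Libraries left out moved the count over all genes to between 1080 and 2134 lower (1080 without MCD 2) and between 328 and 1097 higher (328 without MCD 2 and 474 without MCD 1). With equal summed FPKM, 1112 genes were called lower. All genes called higher numbered 412 with no filter, 1277 after median-ratio scaling, 1737 after quantile normalization, 1347 without both limonin 5 and limonin 6, and 2682 by the authors' q. The deviations of same-numbered libraries from their group means correlated at -0.235 to 0.204. Whether animals of the same number were paired, as in a batch or cage, was not tested. With a replicate block, 10 members were called lower and 0 higher, with 893 genes lower and 363 higher in all; Timp1, Mmp7, Timp3, Mmp11 and Mmp15 were no longer called. Adamts1 turned to a log2 fold change of 0.0083 under quantile normalization and 0.00019 without MCD 1, and ranged from -0.21 to 0.00019 when 1 library was left out. The causes were not tested. Equal summed FPKM and leaving out both limonin 5 and limonin 6 were chosen after seeing the data.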
